A study of Mus musculus with 33 samples.

Results

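A mouse smooth muscle cell line (SMC) was compared with mouse embryonic stem cells (mES) by RNA sequencing. Each group had 3 libraries, which are 6 of the 33 in the series, and both lines carry the strain label 129S2/SvPas, the treatment label control and the time label 0d. The mES cells were kept undifferentiated on a layer of mitomycin-treated embryonic fibroblasts, with 15% serum and the cytokine LIF at 1000 U/mL, whereas the SMC line grew in medium with 15% serum, for which no feeder layer and no LIF are stated. The organ and the age of the animal from which the SMC line came, and whether the line is 1 clone, are not given in the sources used here. The labels do not say that the replicates were separate cultures, so the p-values measure the spread between these libraries, which may be technical. Genes entered the comparison if they reached at least 1 FPKM (fragments per kilobase of transcript, scaled to the fragments sequenced, a level corrected for gene length) in at least 3 of the 6 libraries and lay off chromosomes X and Y, which left 13443 of the 52631 genes in the deposited table. The least expressed gene that entered had 1.0 FPKM in the library that ranked 3 for it, and the gene just outside had 0.9989 FPKM there.

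Smooth muscle cells contract with a dedicated set of actin, myosin and actin-binding proteins, whose genes are driven by serum response factor (SRF) together with its partners myocardin and the MRTF proteins. They also build much of the elastic and collagen matrix of vessel and organ walls. In culture they are known to lose part of the contractile programme and to make more matrix. Embryonic stem cells are held in their state by a network of transcription factors around Oct4 (Pou5f1), Sox2 and Nanog, divide rapidly, and grow as compact colonies joined by E-cadherin.

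Gene levels correlated across genes at Pearson r of 0.981 to 0.989 between the mES libraries, 0.988 to 0.99 between the SMC libraries and 0.637 to 0.643 between a library of one line and a library of the other. A gene was called higher or lower in SMC where limma, fitted to log2(FPKM + 1) of all 13443 genes, gave a Benjamini-Hochberg adjusted p under 0.05 and a log2 difference of at least 1 in size. By this rule 6725 genes (50.0%) were called, 3305 higher in SMC (24.6%) and 3420 lower (25.4%). The median log2 difference over all genes tested was -0.09. All SMC libraries lay above all mES libraries for 5297 genes (39.4%) and below them for 5786 (43.0%), so that the replicates of the lines did not overlap for 11083 genes (82.4%). The called differences included 363 genes higher and 231 lower by at least 4 on the log2 scale. A gene expressed in only one line had to differ in order to enter at all. The direction of such genes, also in the gene lists below, was thus fixed by the filter. That holds for each tested gene named below that stayed under 1 FPKM in all libraries of 1 line, whether or not it is said again. At least 1 FPKM was reached in all 3 SMC libraries and in no mES library by 1026 genes, and the reverse held for 1373. The number of genes at 1 FPKM or more was 13009 to 13037 in mES libraries and 12456 to 12465 in SMC libraries. In mES replicate 3 the gene AL626808.1 alone was listed at 303769 FPKM, and Gapdh, Pou5f1 and Dnmt3l were higher there than in the other mES libraries. The depth behind each value is unknown, as the table holds FPKM and no counts. Among the 9957 genes at 1 FPKM or more in all 6 libraries, 2085 were called higher and 1901 lower. In RNA from whole cultures, fewer cells of a type and less RNA per cell cannot be told apart.

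The contractile genes that define smooth muscle were among the most abundant messages of the SMC line. Acta2, the smooth muscle alpha-actin (ENSMUSG00000035783, chromosome 19, 34241090 to 34255590, minus strand, GRCm38), stood at 29.8, 24.1 and 30.4 FPKM in the mES libraries and at 11373, 11594 and 11339 in the SMC libraries. It ranked 1 by mean level among the protein-coding genes of SMC outside the mitochondrial genome and the sex chromosomes, and its log2 difference was 8.63 ± 0.10 (SE, n = 3 against 3, limma adjusted p = 3.29e-09). Actg2, the gamma-actin of visceral smooth muscle (chromosome 6, 83512905 to 83536265), was at 1.46, 1.62 and 0.531 FPKM in mES and 1421, 1464 and 1351 in SMC, a difference of 9.36 ± 0.19. Neither actin had overlapping libraries.

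Tagln (transgelin, an actin-bundling protein) was at 26.1 to 33.2 FPKM in mES and 5263 to 5656 in SMC, and it ranked 9 in SMC. The regulatory light chain gene Myl9 was at 5.05 to 6.63 and 1829 to 2060 FPKM, and Cnn1, the calponin that restrains actomyosin, at 1.72 to 3.04 and 447 to 457. Lmod1, which nucleates actin filaments in smooth muscle, went from 0.274 to 0.356 FPKM in mES to 59.2 to 60.5 in SMC. For these genes the SMC libraries lay close together and far above mES. Myh11, the smooth muscle myosin heavy chain and the most specific marker of the mature contractile state (chromosome 16, 14194535 to 14291372), was at 0.0669, 0.0930 and 0.0716 FPKM in mES and 16.1, 14.8 and 15.9 in SMC (3.95 ± 0.10, adjusted p = 4.71e-08). Its SMC level was far above mES but far under the actins and their partners in FPKM. Lmod1 and Myh11 stayed under 1 FPKM in every mES library. They thus entered through SMC, and their direction was fixed by the filter.

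**Figure D1:**
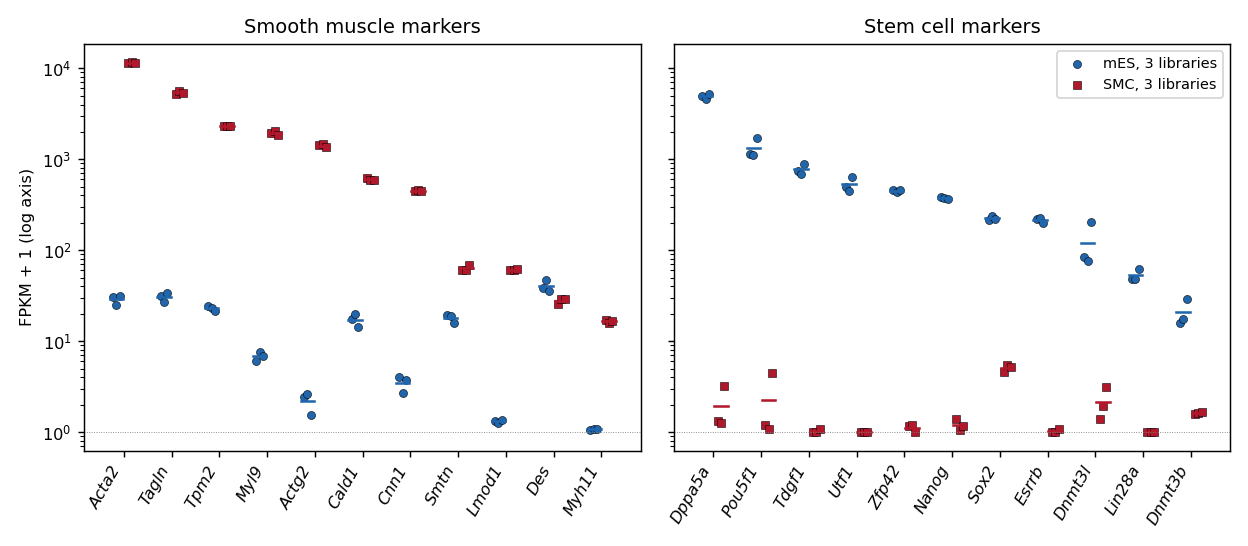
FPKM + 1 on a log axis for single libraries of mES (blue circles, n = 3) and SMC (red squares, n = 3), with a line at each group's mean. The left panel holds smooth muscle markers and the right panel stem cell markers. Des is the only gene of the left panel whose SMC libraries, at 24.6 to 28.0 FPKM, lie below mES, and the Pou5f1 points of SMC are spread from 0.0863 to 3.45 FPKM.

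Of 31 contractile genes tested, 26 were called higher in SMC, 1 lower and 4 were not called, with a median log2 difference of 3.05. The tropomyosins Tpm2 (6.65 ± 0.07) and Tpm1 (4.92), caldesmon (Cald1, 5.13 ± 0.13), the myosin light chain kinase Mylk (5.23), Csrp1 (4.73) and nexilin (Nexn, 4.38) were all called higher. Smoothelin (Smtn) differed less, at 14.9 to 18.2 FPKM in mES and 59.1 to 67.2 in SMC (1.81 ± 0.10). Some members of the list did not go with the actins. Desmin (Des, chromosome 1, 75360329 to 75368579) was at 37.9, 46.0 and 34.6 FPKM in mES and 24.6, 27.8 and 28.0 in SMC, so that every SMC library was below every mES library, but the difference of -0.53 ± 0.12 (adjusted p = 0.00385) was under the minimum size for a call. Synemin (Synm), which pairs with desmin, was called lower, at 1.95 to 4.13 FPKM in mES and 0.199 to 0.373 in SMC (-1.67 ± 0.21). Of 10 markers taken to define the type, Acta2, Actg2, Myh11, Tagln, Cnn1, Smtn, Lmod1 and Cald1 were called higher, Des was not, and Myocd lay below the filter. For Myh11 and Lmod1 the direction was fixed by the filter. Pdlim3 (-0.59), Mcam (-0.25) and the myosin phosphatase subunit Ppp1r12a (0.12) were also not called.

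Promoter sequence is shown for 3 of these genes because the CArG box, the element that SRF binds, is the classical signature of the contractile programme. The sequences are the 250 bases before the gene start in the RefSeq annotation of GRCm38.p6, which is the reference genome and not that of the 129S2/SvPas cells, printed 5′ to 3′ on the gene's strand. Capitals mark CArG boxes, allowing at most 1 of the 6 inner bases to be G or C, searched on both strands. Acta2 lies at chr19:34255374-34255623 (minus strand), Myl9 at chr2:156775214-156775463 and Vcl, the gene of the adhesion protein vinculin, at chr14:20929148-20929397 (both plus strand).
Acta2: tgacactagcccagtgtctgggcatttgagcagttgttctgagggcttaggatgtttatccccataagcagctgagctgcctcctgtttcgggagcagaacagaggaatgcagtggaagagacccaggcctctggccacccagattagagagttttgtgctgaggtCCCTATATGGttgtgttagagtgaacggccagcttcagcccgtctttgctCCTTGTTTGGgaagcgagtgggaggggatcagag
Myl9: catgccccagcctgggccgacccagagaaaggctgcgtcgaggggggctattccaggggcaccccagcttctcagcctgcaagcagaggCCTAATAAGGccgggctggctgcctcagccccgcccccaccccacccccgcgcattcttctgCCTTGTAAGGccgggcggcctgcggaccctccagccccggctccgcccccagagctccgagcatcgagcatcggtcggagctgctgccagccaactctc
Vcl: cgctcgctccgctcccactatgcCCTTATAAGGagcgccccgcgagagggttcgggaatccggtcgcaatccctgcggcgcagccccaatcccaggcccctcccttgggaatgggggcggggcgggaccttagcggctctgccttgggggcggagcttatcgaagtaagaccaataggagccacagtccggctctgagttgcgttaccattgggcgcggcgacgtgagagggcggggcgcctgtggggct
The Acta2 window held 2 boxes, starting 84 and 34 bases before the start, each with 1 inner G or C. Of the 2 boxes of Myl9, the one 161 bases before the start matched exactly and the other, at 99, had 1 inner G or C, and the Vcl box at 227 matched exactly. Vcl was at 8.47 to 13.9 FPKM in mES and 146 to 148 in SMC (3.60 ± 0.16). An exact box occurred in 1.41% of the 31396 promoter windows of the table off chromosomes X and Y, and a box with up to 1 inner G or C in 8.53%. Among the 25 contractile genes with a window, 4 (16.0%) had an exact box (Ldb3, Myl6, Myl9 and Vcl) and 7 (28.0%) had one of either kind, against 1.55% and 9.71% of all 25748 genes. The second count added Acta2, Pdlim3 and Synm, of which Pdlim3 was not called and Synm was called lower in SMC. Of the 23 pluripotency genes with a window, none had an exact box and 3 (13.0%) had one of either kind, Pou5f1 among them. The Cnn1 window held no match, and windows of Tagln, Actg2 and Myh11 were not used here. A match is a run of letters in the reference and was not tested for binding.

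Srf and the genes of its partners did not all move together. Srf itself was at 23.0, 24.5 and 23.5 FPKM in mES and 25.9, 26.6 and 24.9 in SMC and was not called (0.12 ± 0.07, adjusted p = 0.157). Myocardin (Myocd), its smooth muscle and heart partner, was below the level needed for testing, at 0, 0.0390 and 0.0409 FPKM in mES and 0.892, 2.33 and 0.648 in SMC. The MRTF gene Mkl1 was called higher (6.83 against 37.4 FPKM, 2.29 ± 0.10), and Mkl2 was not (0.61). So Srf was present at nearly the same FPKM in both lines. Fhl2, a LIM protein that binds SRF, was at 2.90 to 3.84 FPKM in mES and 398 to 405 in SMC. The forkhead gene Foxs1, expressed in vessel wall cells, was at 0 to 0.220 and 108 to 114 FPKM (6.67 ± 0.10).

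Of 33 tested genes for transcription regulators of smooth muscle and its mesenchymal precursors, 24 were called higher, 2 lower and 7 were not called (median 2.20), and 9 further genes were below the filter. Besides those named, the highest were Prrx1 (5.82), Nr2f2 (5.11), Foxc2 (4.80), Nr2f1 (3.98) and Twist2 (3.93). Klf4, which represses contractile genes and also serves in stem cells, was at 198 to 210 FPKM in mES and 48.7 to 57.2 in SMC (-1.94 ± 0.08), so it was called lower yet stayed well expressed in SMC. Klf5 was at 55.8 to 63.2 and 0.726 to 1.54 FPKM (-4.76 ± 0.16). Hand2 was listed at 0 in every mES library and had a mean of 3.70 FPKM in SMC.

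Genes for calcium handling, nitric oxide signalling and potassium channels were higher but mostly weakly expressed. Of 18 tested, 16 were called higher and none lower, the others being the pump gene Atp2a2 (0.39) and the calcium release channel gene Itpr1 (-0.67), and 6 were below the filter. Caveolin 1 (Cav1) was the highest, at 2.35 to 5.40 FPKM in mES and 104 to 112 in SMC (4.58 ± 0.22). The L-type calcium channel Cacna1c (3.36 FPKM in SMC), the angiotensin receptor Agtr1a (4.75), the endothelin receptor Ednra (1.98) and the guanylate cyclase subunit Gucy1b3 (8.25) were called higher at these low levels. Cacna1c, Agtr1a and Ednra stayed under 1 FPKM in every mES library, so they entered through SMC and their direction was fixed by the filter. Phospholamban (Pln) was listed at 0 in all 6 libraries.

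Matrix genes made up much of the upper end of the comparison. Of 16 genes of fibrillar and associated collagens, 15 were called higher, with a median of 6.72. Col1a2 (chromosome 6, 4504814 to 4541544) was at 7.62, 7.79 and 11.5 FPKM in mES and 5117, 4986 and 5075 in SMC (9.01 ± 0.14, adjusted p = 7.81e-09), and Col3a1 at 1.02 to 2.58 and 1588 to 1659 (9.24 ± 0.19). Col5a2 (8.93), Col1a1 (8.32) and Col5a1 (6.92) were also called higher. These collagens form the banded fibrils of soft tissue. Col18a1, a collagen of basement membranes, was the member that did not differ in its mean, at 44.3 to 52.4 FPKM in mES and 48.8 to 48.9 in SMC (0.00 ± 0.08).

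Elastic fibre genes were also high, with 19 of 21 called higher, 1 lower and a median of 5.20. Lox, the oxidase that crosslinks elastin and collagen, was at 2.27, 3.37 and 4.16 FPKM in mES and 2400, 2302 and 2314 in SMC (9.12 ± 0.16). Microfibril genes Mfap5 (8.46 ± 0.09) and Fbn1 (6.93), the fibulins Fbln2 (7.84) and Fbln5 (7.00) and elastin itself (Eln, 0.150 to 0.579 against 72.9 to 76.3 FPKM, 5.75 ± 0.14) were called higher. The exceptions were Ltbp4, a binding protein of latent TGF-beta, which was lower in SMC (78.4 to 91.3 against 26.5 to 28.1 FPKM, -1.58 ± 0.08), and Fbln1, which was not called (-0.51).

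Among 20 small proteoglycan and matricellular genes, 19 were called higher (median 4.25), led by matrix Gla protein (Mgp, 8.31), an inhibitor of calcification, thrombospondin 1 (Thbs1, 7.66), Igfbp7 (7.53) and periostin (Postn, 7.46). Osteopontin (Spp1) was the one called lower, at 230, 230 and 364 FPKM in mES and 83.0 to 93.0 in SMC (-1.58 ± 0.18). Of 22 genes for matrix proteases and their inhibitors, 18 were called higher and 2, Mmp15 (-1.67) and Adamts9 (-1.24), lower (median 4.32), with Serpinf1 (8.05) and Timp3 (6.88) among the highest. Basement membrane genes split. Lama2 (5.37), Lama4 (3.73) and Col4a1 (2.99) were among 9 called higher of 15, whereas the embryonic laminin chain Lama1 (-2.02), Nid2 (-1.22) and agrin (Agrn, -1.04, but -0.99 and not called without SMC replicate 2) were called lower.

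Adhesion and growth factor genes were mostly higher in SMC, with some receptors the other way. Of 26 integrin and focal adhesion genes, 19 were called higher and 4 lower (median 2.80). The collagen receptor Itga11 was at 0.121 to 0.254 FPKM in mES and 52.1 to 54.0 in SMC (5.51 ± 0.09), and Itga5, the fibronectin receptor subunit, differed by 3.95. The laminin receptor subunit Itga6 was at 74.4 to 85.0 FPKM in mES and 2.40 to 3.82 in SMC (-4.22 ± 0.15), and Itgb7 (-3.97), Itga3 (-1.92) and Itgb4 (-1.02) were also called lower. The call of Itgb4 was lost without mES replicate 1 (-0.97), mES replicate 3 (-0.93) or SMC replicate 1 (-0.98).

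Of 35 growth factor and receptor genes of mesenchyme, 25 were called higher and 2 lower (median 2.67). Tgfb3 (0.316 to 0.486 against 275 to 281 FPKM, 7.63 ± 0.08) differed far more than Tgfb2 (3.98) and Tgfb1 (2.52). The platelet-derived growth factor receptor Pdgfrb was at 2.45 to 3.03 and 150 to 155 FPKM (5.39 ± 0.09). It also stands in a list of pericyte and mural cell markers, of which 3 of 7 tested were called higher (Pdgfrb, Cspg4 and Rgs5), Anpep was lower, Des, Mcam and Notch3 were not called, and 3 were below the filter (median -0.08). The receptor gene Kit was lower, at 26.3 to 31.9 FPKM in mES and 0.145 to 0.277 in SMC (-4.67 ± 0.12), as was Fgf10 (-1.53). Of 10 genes of the insulin-like growth factor system, Igfbp7, Igfbp6 (7.10) and Igfbp3 (5.96) were among 7 called higher, and the ligand gene Igf2 was lower (-2.74). Among 19 targets of YAP and of SRF with MRTF, 14 were higher and 2, Wwc1 (-1.68) and Nt5e (-1.65), lower (median 3.58), including Ankrd1 (6.24), Zyx (4.70), Ctgf (4.28) and Cyr61 (3.58).

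Secreted immune signals and interferon genes were higher in SMC too. Of 17 cytokine and chemokine genes tested, 14 were called higher and 1, the adhesion receptor Icam1 (-1.14), lower, and 6 were below the filter. Csf1, the growth factor of macrophages, was at 1.95, 1.88 and 1.58 FPKM in mES and 770, 764 and 772 in SMC (8.10 ± 0.07, adjusted p = 2.9e-09), and the interleukin gene Il6 at 0 to 0.0410 and 28.2 to 36.5 (5.00 ± 0.12). Cxcl12 (6.43), Ccl7 (5.89) and Ccl2 (5.48) were further chemokines called higher. Of 25 interferon response and MHC class I genes, 15 were called higher, 2 lower and 8 were not called (median 1.55). Isg15 was listed at 0 in 2 mES libraries and at 0.411 FPKM in the other, and at 91.4 to 99.95 in SMC (6.44 ± 0.15), and B2m, the shared chain of class I molecules, differed by 4.30. Ifitm1 went the other way, at 131 to 154 FPKM in mES and 0.435 to 0.925 in SMC (-6.43 ± 0.13), as did Psmb9 (-1.28, but -0.86 and not called without SMC replicate 1). Ifitm3, of the same family as Ifitm1, was higher in SMC (2.54). Il6 and Isg15 stayed under 1 FPKM in every mES library and Ifitm1 in every SMC library, so their direction was fixed by the filter. Of 16 immediate early genes, 5 were called higher and 5 lower (median 0.28), shares not far from those of all genes tested (24.6% and 25.4%). Fosl2 (4.27) and Myc (2.07) were higher and Fosb (-4.31) and Fos (-2.49) lower.

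Hox genes, which record position along the body axis, were mostly under 1 FPKM in mES and broadly expressed in SMC. Of the 39 Hox genes, 28 were tested, 26 were called higher, none lower and 2 were not called (median 2.58), and 11 were below the filter. Apart from Hoxb9, those called higher entered through SMC, since at most 1 mES library reached 1 FPKM, so their direction was fixed by the filter. Hoxc6 was at 0.534, 0.214 and 0.718 FPKM in mES and 43.0, 44.0 and 41.4 in SMC (4.89 ± 0.14), and Hoxb2 (4.60 ± 0.20), Hoxc10 (4.29), Hoxa10 (4.23) and Hoxa5 (3.89) came next. Apart from Hoxc13, expression in SMC ran from paralogue group 2 to group 11, and it included members of all 4 clusters. The Hoxd cluster was the least represented, with Hoxd4, Hoxd8 and Hoxd9 called higher and 6 others below the filter. Among genes of paralogue groups 12 and 13, none was called higher. Hoxc13, the only one tested, was at 1.52 to 3.54 FPKM in mES and 1.71 to 2.31 in SMC (-0.31 ± 0.23) with overlapping libraries. Hoxb9 already had 3.88 to 5.99 FPKM in mES against 15.1 to 17.3 in SMC (1.46 ± 0.15). Reads of neighbouring Hox genes whose transcripts overlap, such as Hoxc5 and Hoxc6, may be shared.

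**Figure D2:**
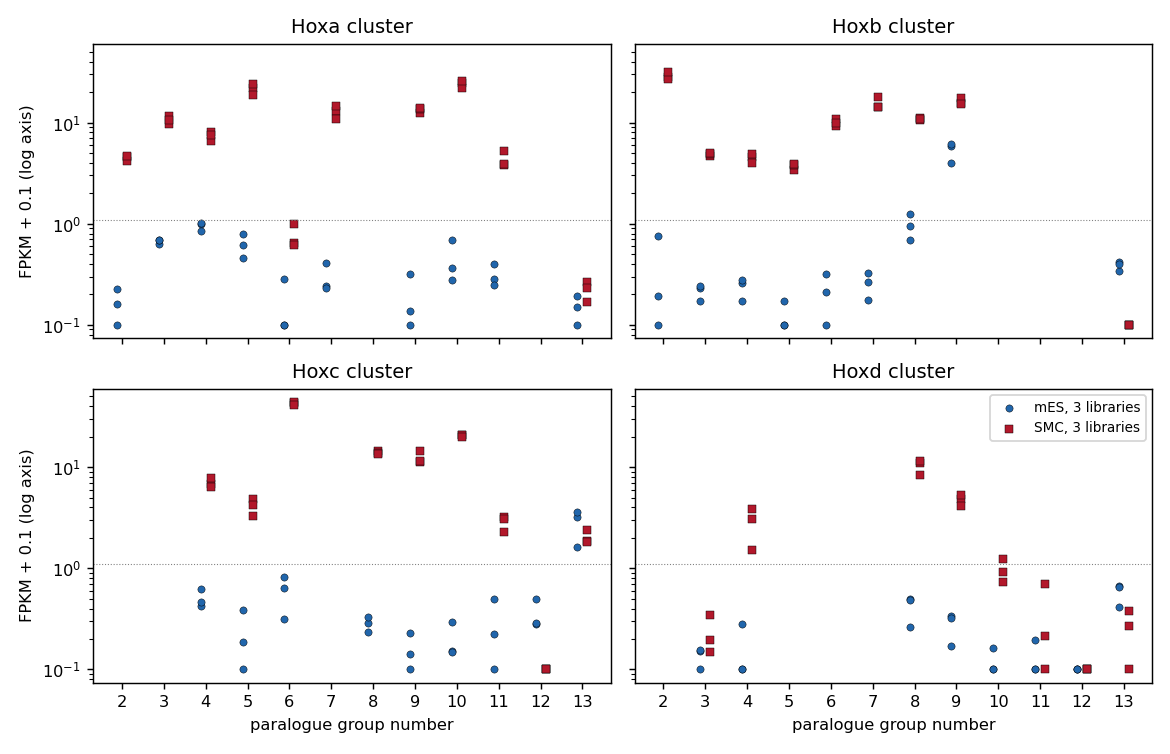
FPKM + 0.1 on a log axis for the genes of each Hox cluster from paralogue group 2 on, by group number, in single libraries of mES (blue circles, n = 3) and SMC (red squares, n = 3), with a dotted line at 1 FPKM. SMC points lie above the line from group 2 to group 11 of clusters a, b and c, other than Hoxa6, and also for Hoxc13. Points of mES lie above it for Hoxb9, Hoxc13 and 1 library of Hoxb8.

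Genes for the Hox partners Meis and Pbx and for T-box factors differed in both directions. Meis2 (4.24) and Meis1 (3.10) were called higher, as was Tbx18 (3.10), a T-box gene of mural cell precursors. Tbx3, which serves in the stem cell network, was at 56.0 to 76.3 FPKM in mES and 0.718 to 1.26 in SMC (-5.06 ± 0.15). In all, 7 of 12 genes of this group were called higher and 3 lower, the others of these being Eomes (-1.96) and Pbx4 (-1.80), and 5 were below the filter. Over all genes tested, 24.6% were called higher and 25.4% lower, so the share called lower was not far from that of all genes.

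The stem cell network was nearly absent from SMC. Pou5f1 (chromosome 17, 35506018 to 35510772) was at 1142, 1126 and 1710 FPKM in mES and at 0.208, 0.0863 and 3.45 in SMC (-9.50 ± 0.52, adjusted p = 1.83e-06). The third SMC library stood well above the other 2, at 0.261% of the mES mean. Nanog (chromosome 6, 122707489 to 122714633) was at 388, 378 and 363 FPKM in mES and 0.380, 0.0689 and 0.163 in SMC (-8.30 ± 0.11), and Sox2 at 213 to 235 and 3.58 to 4.45 (-5.47 ± 0.09). Dppa5a, a germ cell and stem cell RNA-binding protein, showed the largest difference of all genes tested, at 4594 to 5232 FPKM in mES, where it ranked 5, and 0.273 to 2.18 in SMC (-11.45 ± 0.33). It too was highest in the third SMC library. Zfp42 (Rex1) was at 439 to 461 FPKM in mES and 0 to 0.206 in SMC (-8.66 ± 0.09), and Esrrb at 198 to 226 and 0 to 0.0740 (-7.71 ± 0.09). Of the 26 pluripotency genes above 0 in some SMC library, 5 were highest in the first, 9 in the second and 12 in the third. Among all genes called lower and above 0 in some SMC library, these counts were 981, 931 and 1067, so the third also held the most there. Whether the third library holds traces of other cells was not tested.

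Of 34 pluripotency factors tested, 32 were called lower, 1 higher and 1 was not called (median -5.37), and Dppa3 was below the filter. Utf1 (449 to 640 FPKM in mES), Nodal, Lefty2, Zscan10, Gdf3, Nr5a2, Prdm14 and Otx2 were listed at 0 in every SMC library. These genes, as well as Nanog, Zfp42, Esrrb and Tdgf1, were under 1 FPKM in every SMC library. They entered through mES alone, so their lower level in SMC was fixed by the filter. The factors shared with other tissues were lower by less, such as Klf2 (-3.66), Trim28 (-2.80), the LIF receptor Lifr (-2.08) and Klf4. Stat3, the factor through which LIF acts, was the one called higher, at 26.5 to 32.7 FPKM in mES and 60.1 to 64.9 in SMC (1.02 ± 0.10), and its target Socs3 was not called (-0.86). The Stat3 difference was too small for a call without mES replicate 3 (0.92), without SMC replicate 2 (0.99) and after quantile normalization (0.88). Tdgf1 (689 to 892 FPKM in mES) was at 0, 0 and 0.0776 in SMC (-9.55 ± 0.11), and its processed copy Tdgf1-ps1, listed at 0 in SMC, may take part of its reads.

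Promoter windows of the same kind are shown for 2 of these genes because they hold letters bound by the Oct4 and Sox2 pair or by Oct4. Nanog (chr6:122707239-122707488, plus strand) has TTTGCAT followed, after any 1 base, by ACAA, a joined Oct4 and Sox2 motif, and Zfp42 (chr8:43307010-43307259, minus strand) has ATTTGCAT, the octamer, each in capitals and searched on both strands.
Nanog: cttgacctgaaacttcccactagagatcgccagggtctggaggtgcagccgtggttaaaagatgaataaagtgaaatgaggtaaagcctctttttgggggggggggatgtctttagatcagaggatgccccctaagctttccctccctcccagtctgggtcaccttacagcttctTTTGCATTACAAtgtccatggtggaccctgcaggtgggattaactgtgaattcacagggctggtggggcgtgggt
Zfp42: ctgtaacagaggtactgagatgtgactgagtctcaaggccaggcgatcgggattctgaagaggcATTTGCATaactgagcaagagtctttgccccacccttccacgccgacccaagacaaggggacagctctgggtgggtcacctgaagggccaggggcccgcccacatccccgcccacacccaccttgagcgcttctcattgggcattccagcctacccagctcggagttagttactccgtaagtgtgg
The Nanog match starts 75 bases before the gene start and the Zfp42 match 186 bases before it. The joined motif occurred in 0.0350% of the 31396 windows and ATTTGCAT in 1.61%. Of the 23 pluripotency genes with a window, Nanog alone held the first and Zfp42 alone the second.

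Genes of the Lin28 and let-7 axis, which keeps embryonic cells from maturing, were lower in part. Lin28a (47.3, 47.5 and 61.0 FPKM in mES) and Lin28b (6.56 to 7.24) were listed at 0 in every SMC library. Of the let-7 targets, Mycn (-5.29), Trim71 (-4.94) and Igf2bp1 (-3.72) were lower, but Hmga2, at 5.04 to 8.14 FPKM in mES and 10.7 to 12.4 in SMC, had all SMC libraries higher without reaching a call (0.79 ± 0.16). In all 9 of 15 genes of this axis were called lower and none higher (median -1.42), and Dicer1 (-0.13) and Dgcr8 (0.30) did not pass the test.

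Chromatin genes were mostly lower in SMC, with 21 of 35 called lower and 4 higher (median -1.57). The germ line DNA methylation cofactor Dnmt3l was at 83.6, 74.6 and 203 FPKM in mES and 0.396 to 2.14 in SMC (-5.75 ± 0.43), with the third mES library well above the others, and it overlaps Aire on the opposite strand. The de novo methylase Dnmt3b (15.0, 16.6 and 28.4 against 0.598 to 0.648 FPKM, -3.64 ± 0.22) and the oxygenase Tet1 (25.1 to 28.4 against 0 to 0.0504 FPKM, -4.75 ± 0.10) were lower. Polycomb genes Jarid2 (-4.41), Mtf2 (-3.78), Ezh2 (-2.62) and Eed (-2.28) were lower, and the repair glycosylase Tdg (2.31) and the remodeller subunits Smarca2 (3.24) and Smarcc2 (1.39) were higher. Cbx7, of the Polycomb family, was lower (-4.59). The 14 tested genes of the germ line and of early cleavage had summed levels of 137 to 147 FPKM in mES and 0.321 to 0.71 in SMC. None reached 1 FPKM in SMC, so each entered through mES alone and its lower level in SMC was fixed by the filter. Among them were Tex19.1, listed at 0 in SMC, and Dazl (-4.34), and 4 others were below the filter.

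Epithelial and mesenchymal genes differed in opposite directions. Cdh1 (E-cadherin) was at 83.8, 98.3 and 67.9 FPKM in mES and 0.0365, 0.0300 and 0.0253 in SMC (-6.34 ± 0.14), and Cdh2 (N-cadherin) at 0.304 to 0.484 and 54.9 to 58.6 (5.34 ± 0.10). Of 21 epithelial genes tested, 18 were called lower, among them Spint2 (-5.62), Cldn4 (-5.28), Epcam (-5.25) and Krt8 (-4.36). The splicing factor gene Esrp2 was the one called higher (1.46 to 2.47 against 15.1 to 22.7 FPKM, 2.69 ± 0.20). It overlaps Nfatc3 on the opposite strand, and reads of the pair cannot be told apart where strand was not used. Of 19 mesenchymal genes, 17 were called higher, with S100a4 (6.07), Lgals1 (5.38) and Vim (180 to 214 against 3070 to 3296 FPKM, 4.05 ± 0.09) at high levels, and Nt5e (-1.65) and Tgfbi (-1.04) lower. Without SMC replicate 1, Tgfbi was at -0.97 and not called. Cdh1, Cldn4 and Epcam stayed under 1 FPKM in every SMC library and Cdh2 in every mES library, so their direction was fixed by the filter.

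Genes of cell division were expressed in SMC at lower levels than in mES. Of 27 genes of DNA replication, 23 were called lower and none higher (median -2.14), and of 22 genes of mitosis 21 were lower and none higher (median -1.99). The helicase subunit Mcm5 was at 236 to 292 FPKM in mES and 21.0 to 24.7 in SMC (-3.41 ± 0.11), cyclin B1 (Ccnb1) at 176 to 186 and 21.6 to 23.5 (-2.94 ± 0.07), and Mki67 at 21.2 to 23.6 and 6.85 to 7.02 (-1.54 ± 0.08). Rrm1 (0.86) and cyclin E2 (Ccne2, 0.45) had every SMC library above mES without a call. Of 24 inhibitors and p53 targets, 7 were called higher and 5 lower, shares not far from those of all genes tested (24.6% and 25.4%). Cdkn2b (p15, 2.25 to 2.74 against 72.7 to 75.1 FPKM, 4.44 ± 0.09) and Cdkn1a (p21, 50.0 to 79.5 against 421 to 451 FPKM, 2.68 ± 0.17) were higher and Trp53 lower (-1.69 ± 0.08), while Cdkn2a, at 36.8 to 39.3 and 46.1 to 50.5 FPKM, was not called (0.34 ± 0.07). Of the D cyclins, Ccnd2 (5.21) and Ccnd1 (1.70) were higher and Ccnd3 (-1.01) lower, the last not called without mES replicate 3 (-0.90).

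Metabolic lists differed in how far they went one way. Of 23 glycolytic genes, 4 were called higher and 7 lower (median -0.05), shares not far from those of all genes tested. The neuronal type glucose transporter Slc2a3 was at 409 to 495 FPKM in mES and 3.71 to 4.33 in SMC (-6.49 ± 0.09), and Ldhb (-3.86) and Aldoc (-3.52) were also lower, whereas the lactate carrier Slc16a3 (1.84), Eno1 (1.51), Eno2 (1.15) and Tpi1 (1.11) were higher. The call of Tpi1 was lost without mES replicate 1 (0.99), without mES replicate 2 (0.91) and after quantile normalization (0.59). Gapdh was at 1220, 1211 and 2355 FPKM in mES and 1472 to 1644 in SMC (0.02 ± 0.25), the third mES library being well above its replicates. Tdh, the threonine dehydrogenase on which mouse stem cells depend, was at 284 to 326 FPKM in mES and listed at 0 in every SMC library, and its partner Gcat (-2.53) and the glycine enzyme Gldc (-4.28) were lower. Serine synthesis genes Phgdh (1.27) and Psph (1.36) were higher. Of 20 cholesterol synthesis genes 11 were lower and 1, Sc5d (1.57), higher (median -1.10), and of 22 lysosomal genes 16 were higher and 1, the regulator gene Tfeb (-1.09), lower (median 1.85). Among these Ctsk, a collagen-degrading cathepsin, was at 0.537 to 1.44 FPKM in mES and 140 to 150 in SMC (6.28 ± 0.17).

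Of 20 imprinted genes, 6 were called higher and 7 lower (median 0.08), shares not far from those of all genes tested (24.6% and 25.4%). Neighbouring Igf2 (8.56 to 9.63 against 0.310 to 0.795 FPKM, -2.74 ± 0.15) and H19 (19.6 to 24.2 against 1.45 to 2.08 FPKM, -3.06 ± 0.13) on chromosome 7 were both lower, and Phlda2, at 76.2 to 98.2 FPKM in mES, was listed at 0 in SMC. Maternally expressed Meg3 (108 to 140 against 706 to 785 FPKM, 2.62 ± 0.11) and Rian (2.03) on chromosome 12 were both higher, as was the growth factor receptor adaptor Grb10 (5.41). Of the 15 genes of the mitochondrial genome tested, 4 were called lower (mt-Rnr1, mt-Nd3, mt-Nd2 and mt-Rnr2) and none higher. Over all genes tested, 25.4% were called lower and 24.6% higher. The call of mt-Rnr2 was lost without mES replicate 2 (-0.98) or mES replicate 3 (-0.88).

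**Figure D3:**
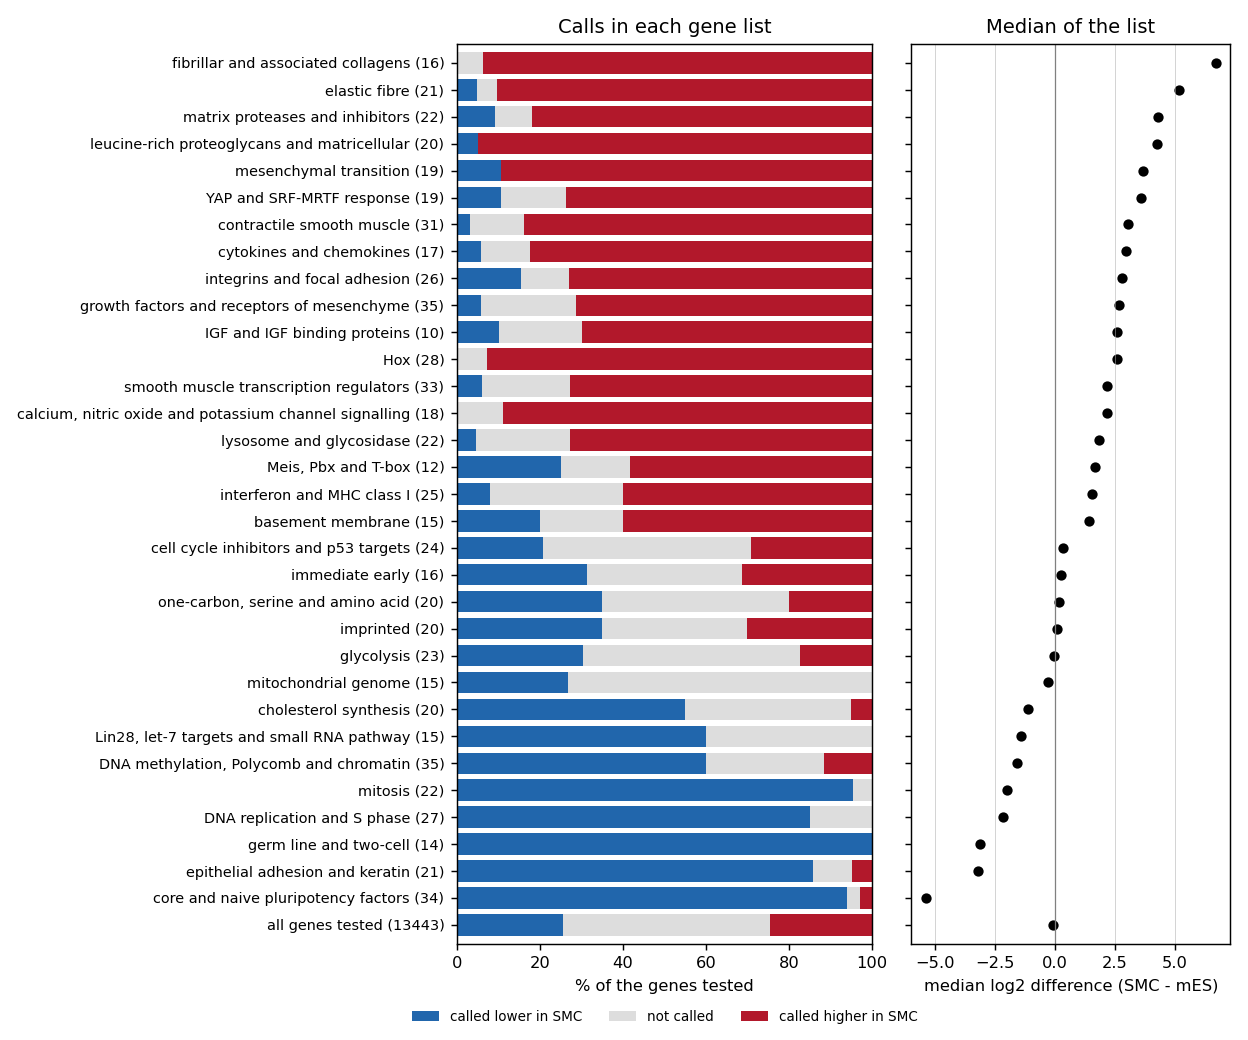
Left, share of the tested genes of each list called lower in SMC (blue), not called (grey) or called higher (red), with the number tested in parentheses. Right, the median log2 difference of the list. Collagens (median 6.72) and pluripotency factors (-5.37) are at the ends, and all 13443 genes tested, with 24.6% higher and 25.4% lower, are at the bottom.

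Markers of other cell types were read in the same libraries. Fibroblast markers were called higher in 15 of 17 cases, at summed levels of 90.0 to 123 FPKM in mES and 13987 to 14231 in SMC, so the SMC line carried fibroblast genes beside contractile ones. In mES, which grew on fibroblasts, Col1a2 stood at 0.177%, Acta2 at 0.246%, Thy1 at 5.52% and Fn1 at 7.76% of the SMC mean, and how much of this came from the feeder cells was not tested. Adipocyte genes were detected in SMC, with Fabp4 at 82.5 to 90.1 FPKM (0 to 0.241 in mES), and Lpl (2.60), Pparg (2.51) and Cebpa (2.37) were also called higher, whereas Adipoq, Plin1, Cidec and Retn were below the filter. Of 19 skeletal and cardiac muscle markers 13 were below the filter, and Myod1, Myf5, Myog, Actc1, Myh6 and Ckm were at 0 in every SMC library. Of the 6 tested, the troponin genes Tnnc1 (1.76) and Tnnt2 (1.08) were called higher and Tnnt1 (-2.67), Tnni3 (-2.08) and Ryr1 (-1.53) lower, at summed levels of 26.9 to 32.3 FPKM in mES and 15.2 to 15.9 in SMC. Of 5 bone and cartilage markers tested, Runx2 (2.89), Sox9 (1.53), Comp (1.32) and Col2a1 were called higher and Alpl (-5.39) lower. Col2a1 was not called without SMC replicate 2 (0.98). Of 5 endothelial markers tested, 3 were called lower, 1 higher and 1 was not called (median -1.58). A further 8 were below the filter, Cdh5, Tek and Kdr among them. Pecam1 (22.5 against 1.23 FPKM, -3.40) was among those lower in SMC. Emcn, the 1 called higher, was listed at 0 in mES and at a mean of 7.03 FPKM in SMC, so its direction was fixed by the filter. Of 6 macrophage and leukocyte markers tested, 2 were called higher, 2 lower and 2 were not called (-4.94 to 1.79), and 6 were below the filter. Ptprc was below the filter, Lyz2 did not differ beyond its spread (0.03 ± 0.11), and Laptm5 (-4.94) was lower in SMC. The glial factor Sox10, at 8.41 to 10.5 FPKM in SMC and 0.116 to 0.336 in mES, was among 4 neural markers called higher of 7, and Stmn2 (-6.78) among 3 called lower.

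The gene with the highest difference of all was Wisp2 (now Ccn5, chromosome 2, 163820861 to 163833146), a secreted CCN family protein, at 0.173, 0 and 0.0827 FPKM in mES and 1185, 1185 and 1114 in SMC (10.07 ± 0.08). The 15 highest genes by the naming rule also held Ccdc80 (8.73), a matrix protein gene, the secreted protease gene Prss23 (8.50) and the small heat shock gene Hspb7 (8.12), which was at 0 to 0.0300 FPKM in mES and 280 to 282 in SMC. The 15 lowest added Upp1 (uridine phosphorylase, 655 to 1094 against 1.25 to 1.94 FPKM, -8.33), L1td1 (-7.27), the glutathione transferase Gsta4 (-7.18) and Triml2 (-7.14). Mymx, which encodes a peptide of myoblast fusion, was at 258 to 375 FPKM in mES and listed at 0 in every SMC library. Rps3a3 (-6.83) is a processed pseudogene. Of the 481 processed pseudogenes tested, 33.5% were called lower in SMC and 3.95% higher, against 24.7% and 25.4% of the 12209 protein-coding genes, and such copies may share reads with their parents.

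Set among the 11 groups of the series, which add stem cells treated with retinoic acid (RA) or retinoic acid and CHIR (RA/CHIR) for 4, 7, 10 or 16 days and an extraembryonic endoderm line (XEN), SMC had the highest mean for 2112 (63.9%) of the genes called higher, and mES for 2285 (66.8%) of those called lower. Each set was chosen for a higher level in the line named, so part of these shares was fixed by the choice. A mean of at least 5 FPKM was reached in SMC by 2719 of the genes called higher, and of these 83.0% did so in RA-16d as well. The share was 64.7% for XEN and 70.5% for RA/CHIR-16d. That mean was reached in mES by 2533 of the genes called lower. Of these, 70.3% did so in RA-16d as well, 72.0% in RA/CHIR-16d and 66.8% in XEN. No such share was taken over all genes tested. Acta2 (11435 ± 138 FPKM in SMC, 3683 ± 355 in RA-16d) and Tagln (5437 ± 200 and 3085 ± 64.3) were highest in SMC. Myh11 (15.6 ± 0.682 in SMC, 85.8 ± 24.7 in RA-16d) and Des (26.8 ± 1.96 and 228 ± 27.3) were highest in RA-16d, and neither pair of ranges overlapped. The levels of Cnn1 (451 ± 4.97 and 562 ± 48.7) and Actg2 (1412 ± 56.8 and 1720 ± 209) were above those of SMC in every RA-16d library. These SMC and RA-16d levels were set side by side without a test.

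A small set of 61 genes had a mean of at least 5 FPKM in SMC and a mean under 1 in each other group. It was led by Wisp2, Adgrd1 (86.8 ± 1.34 FPKM), Gpr176 (69.9 ± 0.87) and Mcub (56.3 ± 2.87), and it held the matrix protease gene Mmp3 and the transcription factor gene Ebf1. Single libraries elsewhere could exceed 1 FPKM, as for Ebf1 at 2.11 in mES replicate 2. The matching set for mES had 56 genes and held Fgf4 (58.7 ± 3.88 FPKM), Khdc3 (27.2 ± 3.40), Nr5a2 and Prdm14. Lin28a was not of this kind, since its level in XEN (89.1 ± 5.88) was above that in mES (52.0 ± 7.86).

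**Figure D4:**
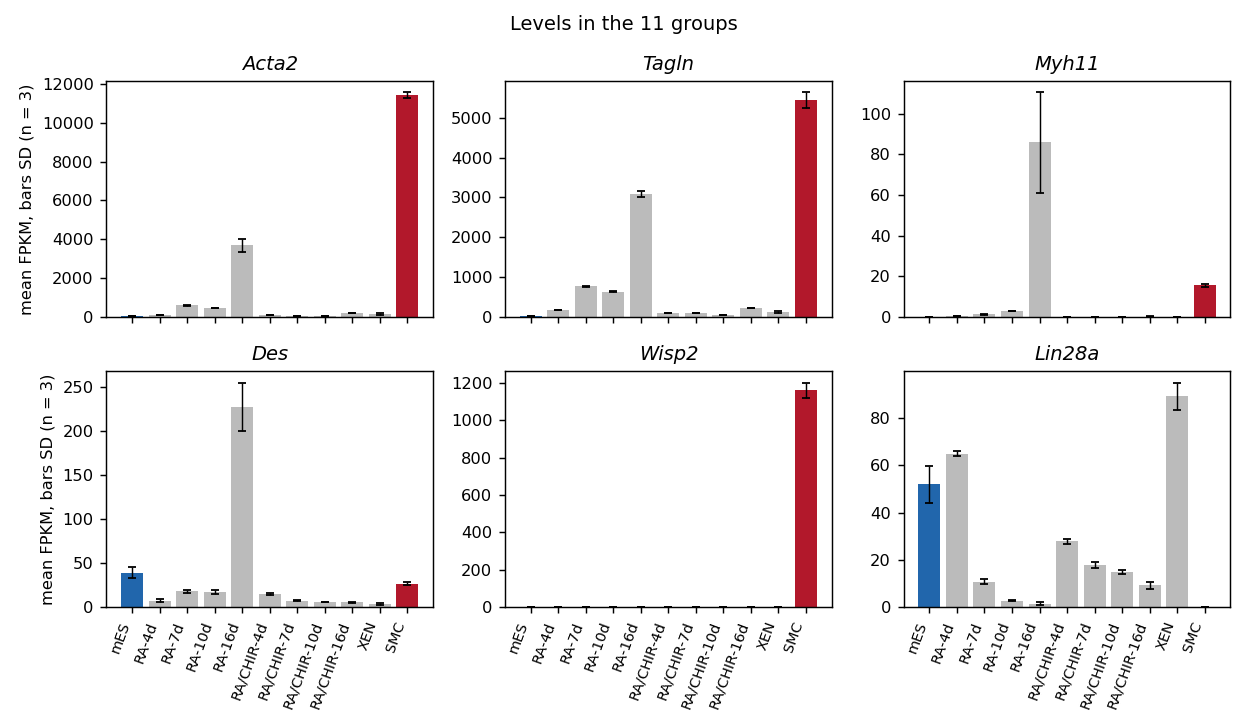
Mean FPKM with SD (n = 3 libraries) of 6 genes in the 11 groups, mES in blue and SMC in red, on linear axes that start at 0. Acta2, Tagln and Wisp2 peak in SMC (Wisp2 at 1161 FPKM), Myh11 and Des peak in RA-16d, and Lin28a is listed at 0 in SMC and peaks in XEN.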

How the data were processed

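The deposited table holds FPKM values that the authors computed per gene from poly(A) libraries read as 150 bp pairs, with a stated target depth per the labels. Trimmomatic 0.33, Cufflinks, Cuffdiff, HISAT2 2.0.4 and the build GRCm38 are listed in the submitters' processing notes, and their settings and any use of strand are not given in the sources used here. Symbols that had turned into dates (27) were restored through gene identifiers. Positions come from GENCODE M21 and promoters from RefSeq. limma 3.58.1 (R 4.3.3, variance trend, two-sided, Benjamini-Hochberg over 13443 genes) was fitted to log2(FPKM + 1) of the 6 libraries, so that differences of low genes are understated. Standard errors and adjusted p-values are limma's. The script was tested on simulated data. The naming rule took the 15 highest and 15 lowest called genes without overlapping replicates whose larger group mean reached 5 FPKM, passing over predicted genes, clone names and shared symbols. It also took a set of identity genes (such as Acta2, Myh11, Pou5f1 and Nanog) and, from each list, called members with large differences and members that were not called or went against the rest. Any others were picked after their values were seen. The comparison and lists were chosen with earlier results of these data known. Some items are not reported here. Alternatives varied scaling, pseudocount, filter, libraries, trend and replicate block.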

Additional observations from a re-analysis of the deposited data

How the results depend on the processing

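The count of called genes, 6725, was 5023 to 7319 under the other scalings, pseudocount, filters and fits tried, and 6701 to 6732 with 1 library left out. With no minimum difference it was 10758. The share of calls higher in SMC was 49.1%, with 49.1 to 49.4 when 1 library was left out, 47.8 with no minimum difference and 48.0 after quantile normalization. A filter of 5 FPKM turned the balance, to 52.5% (2636 higher and 2387 lower). Replicate numbers did not pair the libraries, since the deviations of same-numbered libraries correlated at 0.00172, -0.0442 and -0.0601. With the numbers as a replicate block, 6741 genes were called, 49.1% of them higher. Quantile normalization moved the median of all genes from -0.09 to -0.14 and left Eno1 (0.93), Phgdh (0.95), Tpi1 (0.59), Itgb4 (-0.80) and Stat3 (0.88) too small for a call. With a pseudocount of 0.1, Pdlim3 (-1.18) was called lower. The median of bone and cartilage markers turned from 1.32 to -0.06 with no filter and -1.25 with a filter of 5 FPKM, and that of neural and glial markers from 1.25 to -0.19 with no filter, where the genes tested differ. The depth behind single FPKM values is unknown and limits what can be said of genes near 0.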
